A study of Mus musculus with 4 samples.

Results

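The enzymes and binding proteins that keep peroxides, free thiols and reactive metals in check were followed in double-positive thymocytes given dexamethasone. They were taken by gene symbol as the superoxide dismutases, catalase, peroxiredoxins, glutathione peroxidases, glutathione transferases, the enzymes of glutathione synthesis and recycling, glutaredoxin, the haem oxygenases, the quinone oxidoreductase Nqo1 and the metallothioneins. The symbol rule used no measured value, but it was chosen with earlier results of these data known. It gave 57 of 12488 probe sets, which stand for 42 of 8251 genes. Another 4 probe sets name a gene of these families beside a second gene and were not used.

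Double-positive thymocytes are immature T cells with both CD4 and CD8 on their surface. RNA was measured on 4 Affymetrix arrays, 2 from cells given 1E-07 M dexamethasone, a synthetic glucocorticoid, and 2 from cells given medium with PBS in its place. In both groups the thymocytes of female C3H/HeN mice, 4 weeks of age, were sorted with microbeads and cultured for 3 h before total RNA was taken. The submitters call the 2 arrays of a group technical replicate extracts, so the p-values here measure the spread between extracts and not between animals.

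Superoxide dismutases turn superoxide into hydrogen peroxide, which catalase, the peroxiredoxins and the glutathione peroxidases then remove. Glutathione is made from glutamate, cysteine and glycine by glutamate-cysteine ligase and glutathione synthetase, is oxidised when it is used, and is returned to its reduced form by glutathione reductase at the cost of NADPH. Many of these genes are driven by the transcription factor Nrf2 under oxidant stress, and metallothioneins are textbook targets of both metals and glucocorticoids in mouse liver. Death of thymocytes under glucocorticoids has long been studied together with their glutathione and hydrogen peroxide.

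With the deposited scaling, the levels of these transcripts differed little between dexamethasone and medium at 3 h. Of the 42 genes, 34 were bright enough to be tested, and 0 of the 34 passed the threshold of 0.05 in limma after Benjamini-Hochberg adjustment over all 5582 genes tested, beside 218 of all genes (3.91%). At so small a share, a count of 0 among 34 does not set the members apart from all genes. The adjusted p of the 34 ran from 0.0929 for Gpx3 to 0.993 for Gpx2. At an unadjusted p under 0.05 there were 4 of the 34, or 11.8%, beside 19.9% of all genes. These were Gpx3 and Gsr, higher with dexamethasone, and Gstp1 and Mgst3, lower. The median log2 difference was 0.01 over the 34 and 0.00 over all genes, and the median absolute difference was 0.12 over the 34 and 0.16 over all genes. Fewer cells that make a transcript and less of it per cell cannot be told apart in such bulk RNA.

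The intervals were narrow for most members. The 95% interval of the difference, from the same fit and not adjusted for the number of genes, lay wholly within 2-fold for 32 of the 34 members (94.1%, against 88.0% of all genes). It lay within 1.5-fold for 22 of them (64.7%, against 60.5% of all genes). The members whose interval reached past 2-fold were Gpx3 and Gpx5. The dexamethasone arrays did not overlap the medium arrays for 16 of the 34, of which 8 were higher and 8 lower. Over all genes tested the groups did not overlap for 50.5%, with 24.7% higher and 25.7% lower.

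**Figure D1:**
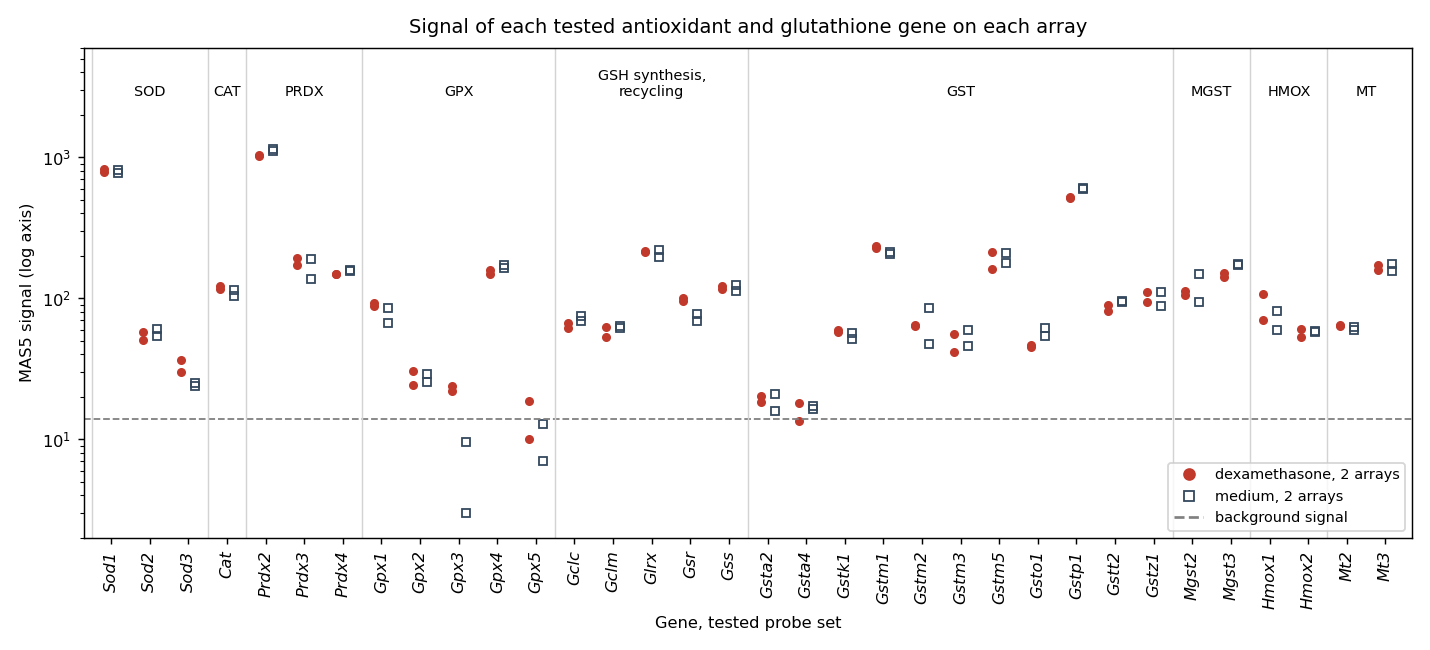
MAS5 signal on a log axis for each of the 34 tested genes, with the 2 dexamethasone arrays as filled red circles left of the 2 medium arrays as open squares; the dashed line is the background signal of 14. For most genes the arrays of both groups lie within a narrow band, while Gpx3 lies above the line on the dexamethasone arrays and below it on the medium arrays.

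The treatment itself was visible on the same arrays. Fkbp5, a co-chaperone and known target of the glucocorticoid receptor, had signals of 2382 and 2152 with dexamethasone, against 660.0 and 590 in medium. Nr3c1, which encodes the receptor, had 53.7 and 46.4 with dexamethasone, against 25.1 and 26.5 in medium. Both passed (limma adjusted p = 0.000349 and 0.0371).

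Among the superoxide dismutases 0 of 3 passed. Sod1, the copper-zinc enzyme of the cytosol, had signals of 786 and 823 with dexamethasone, against 815 and 779 in medium. The groups interleaved, and the log2 difference of 0.01 ± 0.07 (SE) had an interval of -0.14 to 0.17, among the narrowest of the members. Sod2, the manganese enzyme of mitochondria, had 58.1 and 50.4 with dexamethasone, against 54.1 and 60.6 in medium, and also overlapped. Sod3, the secreted enzyme, had 36.6 and 30 with dexamethasone, against 23.8 and 25.0 in medium. Both dexamethasone arrays were higher there, by 0.43 ± 0.19 on the log2 scale, and the difference did not pass (limma adjusted p = 0.285).

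Catalase, the peroxisomal enzyme that splits hydrogen peroxide, had a pair of probe sets that gave like values. The first had 122 and 117 with dexamethasone, against 104 and 114 in medium, and the second had 112 and 114 with dexamethasone, against 107 and 109 in medium. The dexamethasone arrays were higher on both, with log2 differences of 0.13 and 0.06 that did not pass.

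Of the peroxiredoxins, thiol peroxidases that the thioredoxin system recharges, 0 of 3 passed. Prdx2, which works in the cytosol, had signals of 1034 and 1026 with dexamethasone, against 1115 and 1150 in medium. The groups did not overlap, but the log2 difference was only -0.14 ± 0.06 (limma adjusted p = 0.273). A dimmer Prdx2 probe set overlapped, at 18.5 and 18.9 with dexamethasone, against 27.5 and 16.2 in medium. Another read at most 0.6, and the mean of all Prdx2 probe sets gave a log2 difference of 0.04. Prdx3, the mitochondrial member, had 194 and 172 with dexamethasone, against 191 and 138 in medium. Prdx4, which acts in the endoplasmic reticulum, had 149 on each dexamethasone array, against 157 and 158 in medium, with an interval of the log2 difference of -0.28 to 0.12. Both dexamethasone arrays lay below both medium arrays for Prdx4, while the groups overlapped for Prdx3.

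Of the glutathione peroxidases 5 of 6 were tested and 0 passed. Gpx3, a secreted selenoenzyme known from plasma, had signals of 24 and 22 with dexamethasone, against 3 and 9.5 in medium. Both medium values lay at or under 14, the highest signal of 19 control probe sets for bacterial and yeast transcripts, which served as the background here. The dexamethasone mean of 23.0 ± 1.41 (SD, n = 2) was 1.64 times that background, so Gpx3 was dim in both groups. The fitted log2 difference of 1.89 ± 0.48 did not pass (limma adjusted p = 0.0929), and it depends on how the dim medium values are handled. It was 0.82 with a pseudocount of 16 in place of 1 (limma adjusted p = 0.0591), 1.19 without the first medium array and 2.58 without the second. Gpx3 entered the test only through its dexamethasone arrays.

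Because Gpx3 lay above background on the dexamethasone arrays and within it on the medium arrays, the 250 bases before its start in RefSeq's table (GRCm38.p6, chr11:54902604-54902853, plus strand) are shown. Capitals mark the match to TGTTCT, the half-site that glucocorticoid receptors bind in pairs, searched on both strands.
Gpx3: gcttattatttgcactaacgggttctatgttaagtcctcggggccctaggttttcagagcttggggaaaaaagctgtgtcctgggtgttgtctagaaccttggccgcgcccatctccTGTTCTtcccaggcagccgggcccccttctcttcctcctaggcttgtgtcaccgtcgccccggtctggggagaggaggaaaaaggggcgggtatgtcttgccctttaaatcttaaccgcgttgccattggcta
Such a half-site lay in the same window of 9 of the 36 members that the table holds (25.0%), and of 18.2% of all 27025 genes in it. The full paired site lay in 0 of the 36 and in 0.0111% of all genes. These letters describe the window and not binding, and the start listed by RefSeq need not be the start used in thymocytes.

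Gpx1, the main glutathione peroxidase of most cells, had signals of 88.3 and 92.3 with dexamethasone, against 66.6 and 84.7 in medium. Both dexamethasone arrays were higher, and the log2 difference was 0.26 ± 0.14 (limma adjusted p = 0.372). Gpx4, which reduces lipid hydroperoxides and holds back ferroptosis, had 160 and 148 with dexamethasone, against 164 and 171 in medium. It was thus slightly lower, by -0.12 ± 0.09, with an interval of -0.34 to 0.09. Gpx2, known from the gut, overlapped at 30.7 and 24.4 with dexamethasone, against 25.5 and 29.2 in medium. Gpx5, known from the epididymis, straddled the background at 18.6 and 10.1 with dexamethasone, against 7 and 12.9 in medium. Like Gpx3, it entered the test only through its dexamethasone arrays. Gpx7 stayed within background on all arrays.

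**Figure D2:**
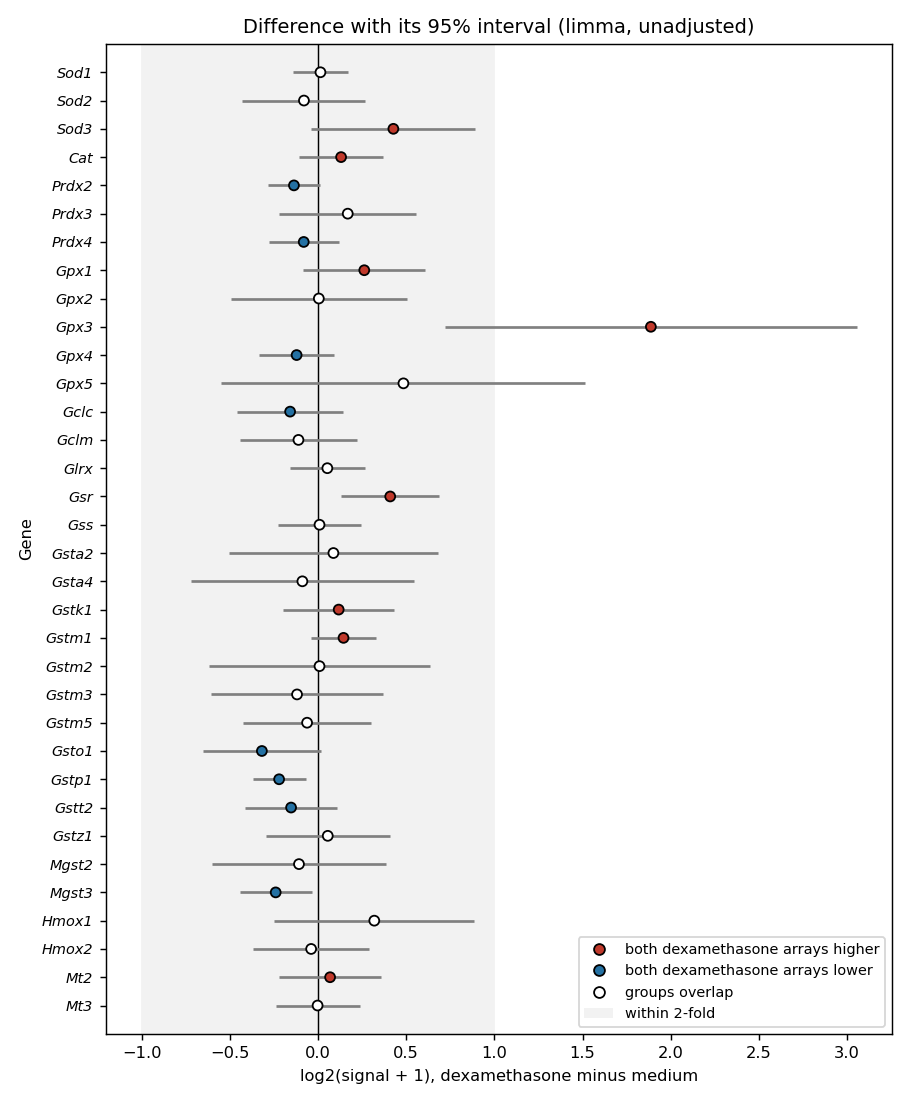
Log2 difference, dexamethasone minus medium, of the 34 tested genes (points) with its unadjusted 95% interval from limma (lines), ordered by enzyme class. Of the 34 intervals, 32 lie wholly inside the grey band of 2-fold in either direction; those of Gpx3 and Gpx5 reach past it.

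Glutathione synthesis and recycling gave 0 passing genes of 5. Gclc, the catalytic subunit of glutamate-cysteine ligase, had signals of 61.6 and 67.3 with dexamethasone, against 68.9 and 75.2 in medium. Gclm, its modifier subunit, had 62.3 and 52.9 with dexamethasone, against 61.1 and 63.1 in medium. Their log2 differences were -0.16 ± 0.12 and -0.11 ± 0.14, and only Gclc had groups that did not overlap. Gss, which adds the glycine, had 121 and 116 with dexamethasone, against 113 and 123 in medium, a log2 difference of 0.01 ± 0.10. A dimmer Gss probe set overlapped too, at 18.2 and 21.6 with dexamethasone, against 28.4 and 17.4 in medium.

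Gsr, which encodes glutathione reductase, had signals of 95 and 100.5 with dexamethasone, against 77.6 and 69.3 in medium. Both dexamethasone arrays were higher, 1.33-fold on average, and the log2 difference of 0.41 ± 0.12 had an interval of 0.13 to 0.69 (limma adjusted p = 0.120). It did not pass in any of 15 alternative treatments of the data, and was -0.04 when scaled to the hybridization controls. Glrx, a glutaredoxin that removes glutathione from protein thiols, overlapped at 217 and 212 with dexamethasone, against 195 and 218 in medium.

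Of the cytosolic and mitochondrial glutathione transferases, which conjugate glutathione to electrophiles, 11 of 15 were tested and 0 passed. Gstp1, the pi-class enzyme, had signals of 516 and 520.0 with dexamethasone, against 609 and 599 in medium. The arrays within each group lay close together, and the log2 difference of -0.22 ± 0.06 had an interval of -0.37 to -0.07 (limma adjusted p = 0.121). Gsto1, the omega-class enzyme, had 47.0 and 45.0 with dexamethasone, against 61.1 and 54.3 in medium, a log2 difference of -0.32 ± 0.14. Gstt2, of the theta class, was lower as well, at 81.1 and 89.8 with dexamethasone, against 95.4 and 94.6 in medium. The limma adjusted p was 0.271 for Gsto1 and 0.494 for Gstt2, and for all 3 genes both dexamethasone arrays lay below both medium arrays.

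Gstk1, the kappa-class enzyme of mitochondria and peroxisomes, had 57.8 and 59.8 with dexamethasone, against 51.5 and 56.9 in medium. Gstz1, which takes part in tyrosine breakdown, overlapped at 94.6 and 111 with dexamethasone, against 88.3 and 110.0 in medium. Of the alpha class, Gsta2 had 20.3 and 18.4 with dexamethasone, against 20.8 and 15.8 in medium, and Gsta4 had 18.2 and 13.5 with dexamethasone, against 16.4 and 17.1 in medium. Both lay near background with overlapping groups, and Gsta1 and Gsta3 lay within it on every array.

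The mu-class transferases lie together on chromosome 3 and are close relatives. Most of their probe sets carry the suffix _r_at or the suffix _f_at, the latter given by Affymetrix to designs that other transcripts of a family may bind. Their values are therefore uncertain as to the gene. The brighter Gstm1 probe set had 235 and 228 with dexamethasone, against 213 and 206 in medium, a log2 difference of 0.14 ± 0.08. The dimmer one had 67.3 and 70.4 with dexamethasone, against 48.3 and 42.0 in medium, a log2 difference of 0.60 ± 0.13. Both were higher on both dexamethasone arrays, but they disagree in size. In the fit of every probe set the dimmer one had the lowest adjusted p of the 40 member probe sets tested (limma adjusted p = 0.0763), of which 0 passed, beside 3.51% of all 6701. Gstm2, Gstm3 and Gstm5 overlapped between groups on their brightest probe sets, with log2 differences between -0.12 and 0.01. The probe sets of Gstm2 and Gstm5 with neither suffix lay within background on every array, at 5.7 or less and 1.7 or less. Gstm6 lay within background too.

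**Figure D3:**
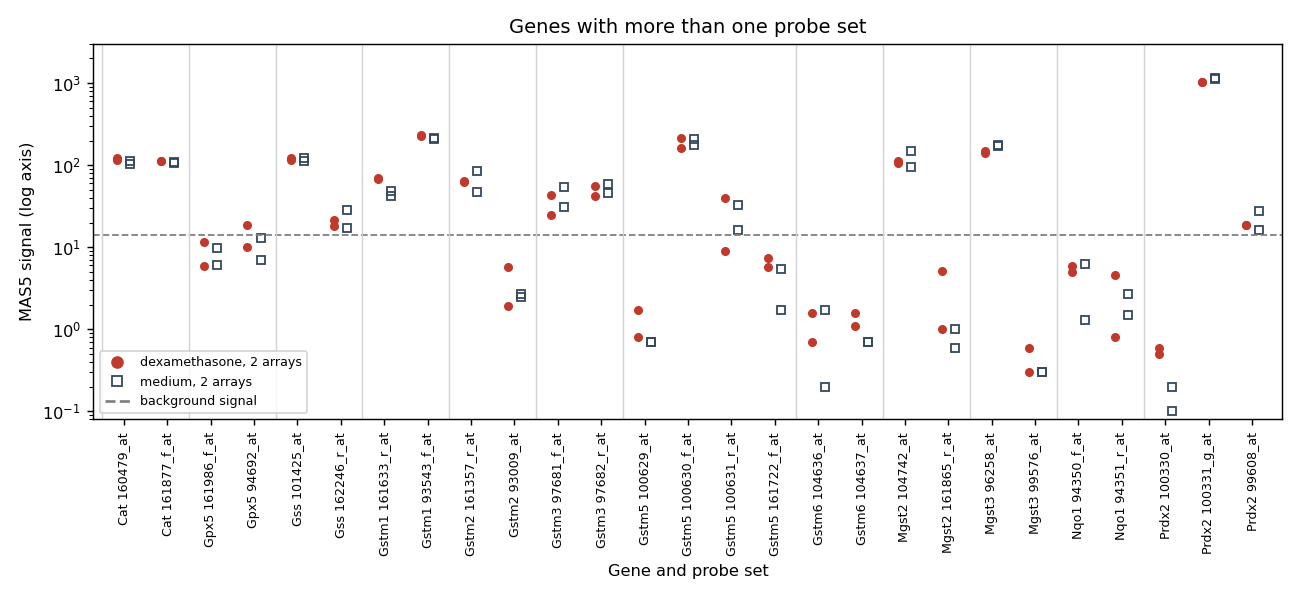
MAS5 signal on a log axis for the 27 probe sets of the 12 genes with several, dexamethasone arrays as filled red circles left of the medium arrays as open squares. Probe sets of a gene often lie on either side of the background of 14 (dashed line), as for Mgst3 and Prdx2; those of Gstm1 lie higher with dexamethasone on both designs.

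Of the microsomal transferases, which act in membranes and on leukotrienes, Mgst3 had signals of 151 and 143 with dexamethasone, against 172 and 175 in medium. Both dexamethasone arrays were lower, with a log2 difference of -0.24 ± 0.08 (limma adjusted p = 0.186). Its other probe set read at most 0.6. Mgst2 overlapped, since its medium arrays read 94.2 and 148 around dexamethasone values of 113 and 106. Mgst1 was within background.

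The stress-inducible genes of these families showed no passing change either. Hmox1, the inducible haem oxygenase and a standard Nrf2 target, had signals of 107 and 70.6 with dexamethasone, against 81.4 and 59.2 in medium. The first array of each group was the higher one, the groups overlapped, and the log2 difference was 0.32 ± 0.23 (limma adjusted p = 0.510). Hmox2, the constitutive enzyme, had 52.8 and 60.9 with dexamethasone, against 58.7 and 57.9 in medium. Nqo1, another standard Nrf2 target, was within background on both of its probe sets, at 5.9 or less with dexamethasone and 6.3 or less in medium.

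Metallothioneins are small cysteine-rich proteins that bind zinc and copper. Mt2 had signals of 64.4 and 64.0 with dexamethasone, against 60 and 62.4 in medium. Although the groups did not overlap, the log2 difference was 0.07 ± 0.12, with an interval of -0.22 to 0.36. Mt1, its neighbour on chromosome 8, was within background, at 6.0 and 3.4 with dexamethasone, against 4.9 and 4.5 in medium. Mt3, best known from brain, overlapped at 159 and 173 with dexamethasone, against 176 and 157 in medium.

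Mt2 and Gclm are shown as textbook examples of genes wired to metals and to oxidants, since both stayed within a narrow interval here. The sequences are the 250 bases before each start in RefSeq's table (GRCm38.p6, plus strand), at chr8:94172368-94172617 for Mt2 and chr3:122245307-122245556 for Gclm. Capitals mark the metal response core TGCNCNC, the antioxidant response core TGACNNNGC and the half-site TGTTCT, each searched on both strands.
Mt2: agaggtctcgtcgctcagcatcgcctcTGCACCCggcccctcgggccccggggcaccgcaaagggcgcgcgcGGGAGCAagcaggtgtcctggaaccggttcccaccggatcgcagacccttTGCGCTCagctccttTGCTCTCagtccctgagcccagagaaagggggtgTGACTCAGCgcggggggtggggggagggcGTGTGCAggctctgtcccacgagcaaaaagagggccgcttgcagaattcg
Gclm: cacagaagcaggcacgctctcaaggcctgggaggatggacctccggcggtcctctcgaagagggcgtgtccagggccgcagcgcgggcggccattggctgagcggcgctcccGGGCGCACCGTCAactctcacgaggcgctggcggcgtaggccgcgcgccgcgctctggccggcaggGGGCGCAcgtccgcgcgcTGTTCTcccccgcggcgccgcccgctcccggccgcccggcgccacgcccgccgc
Mt2 held 5 metal response matches and 1 antioxidant match, TGACTCAGC. Gclm held 2 metal response matches, 1 antioxidant match that overlaps the first of them, and 1 half-site. Over the members in the table, the metal response core lay in 17 of 36 genes (47.2%, against 47.2% of all genes) and the antioxidant core in 6 of 36 (16.7%, against 11.5% of all genes). A match describes the letters only.

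The 8 members that were too dim to test were Gpx7, Gsta1, Gsta3, Gstm6, Gstt1, Mgst1, Mt1 and Nqo1. All of their 10 probe sets lay within background in both groups, so no fold is given for them. Over all 57 probe sets of the families, 17 were within background in both groups and 36 read above 14 on all 4 arrays.

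**Figure D4:**
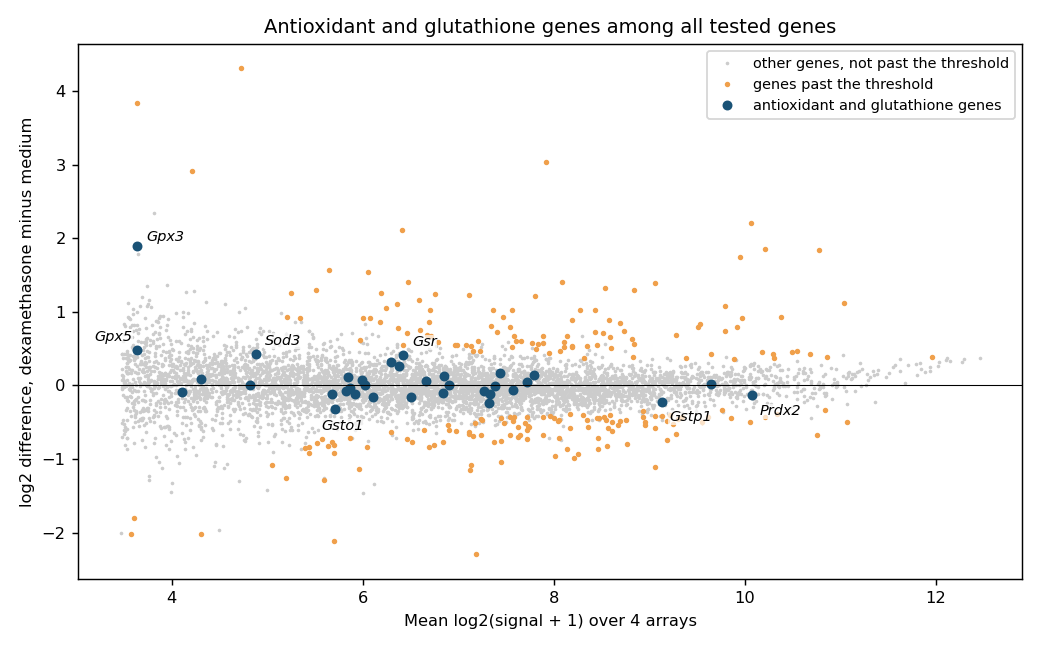
Log2 difference, dexamethasone minus medium, against the mean log2 signal of all 5582 tested genes; grey points did not pass, orange points passed, and blue points are the 34 antioxidant and glutathione genes. The blue points lie near 0 except for Gpx3, at 1.89 among the dimmest genes tested, with medium signals within background.

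Neighbouring pathways that feed or draw on these enzymes were read from 9 lists, also chosen with earlier results of these data known. Of their 85 genes 54 were tested, and 3 rose and 1 fell, beside 3.91% of all genes past the threshold in either direction. None of the 4 but Txnip kept its call in every fit that left out an array, and all 4 missed the threshold without the variance trend (limma adjusted p = 0.0728 for Sephs2, 0.106 for Slc30a4, 0.0535 for Txnip and 0.131 for Txnrd1). Of 4 tested genes of selenoprotein synthesis 1 rose. Sephs2, which makes the selenium donor for the selenocysteine of the glutathione peroxidases and thioredoxin reductases, had signals of 250 and 238 with dexamethasone, against 142 and 139 in medium. The groups lay far apart, 1.73-fold (log2 difference 0.79 ± 0.08, limma adjusted p = 0.00572). It was 0.34 and did not pass with scaling to the hybridization controls, and it did not pass without the first dexamethasone array or without either medium array.

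Of 11 tested genes of zinc and copper handling 1 rose. Slc30a4, which encodes a zinc transporter, had 112 and 126 with dexamethasone, against 48.4 and 62.1 in medium, 2.15-fold higher (log2 difference 1.10 ± 0.15, limma adjusted p = 0.0179). Its other probe set was within background. Slc30a4 did not pass when any 1 array was left out, or when its probe sets were averaged (log2 difference 0.48). Mtf1, the zinc sensor that drives metallothionein genes, overlapped at 34.4 and 44.8 with dexamethasone, against 46.3 and 38.9 in medium.

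In the thioredoxin system, which recharges the peroxiredoxins, 1 of 8 tested genes rose and 1 fell. Txnip, an inhibitor of thioredoxin, had 1257 and 1331 with dexamethasone, against 621 and 600 in medium, and Txnrd1, the cytosolic thioredoxin reductase, had 102 and 121 with dexamethasone, against 186 and 175 in medium. The other Txnip probe set was dimmer and overlapped, at 36.2 and 42 with dexamethasone, against 43.1 and 35.3 in medium, and the mean of both gave a log2 difference of 0.54. Txn1 itself differed by 0.08 ± 0.07. Txnrd1 did not pass when any 1 array was left out or without the filter on dim genes.

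In the other lists 0 genes passed. Of 5 NADPH-making enzymes, the isocitrate dehydrogenase genes Idh1 and Idh2 differed by -0.43 ± 0.14 and -0.41 ± 0.09 (limma adjusted p = 0.164 and 0.0580). Pgd, of the same list, went the other way, by 0.34 ± 0.08 (limma adjusted p = 0.0735). Of 6 Nrf2 regulators and partners, the largest differences were -0.39 ± 0.15 for Mafk and -0.29 ± 0.08 for Nfe2l1. Nfe2l2, which encodes Nrf2 and was named after its values were seen, had 80.6 and 95.7 with dexamethasone, against 90.2 and 87.6 in medium. Of 5 genes of glutathione precursor supply and turnover, the amino acid transporter genes Slc1a4 and Slc1a5 differed by -0.97 ± 0.45 and -0.44 ± 0.25 near background.

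Of 7 genes of iron and haem handling, Blvra, the biliverdin reductase downstream of haem oxygenase, differed by 0.74 ± 0.30 and Slc11a2 by -0.17 ± 0.14. Of 3 genes of the phagocyte NADPH oxidase, Cyba differed by -0.20 ± 0.07 and Rac1 by 0.13 ± 0.07. Of 5 repair genes, the DNA glycosylase gene Ogg1 differed by 0.39 ± 0.19 and Park7 by 0.11 ± 0.10.

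**Figure D5:**
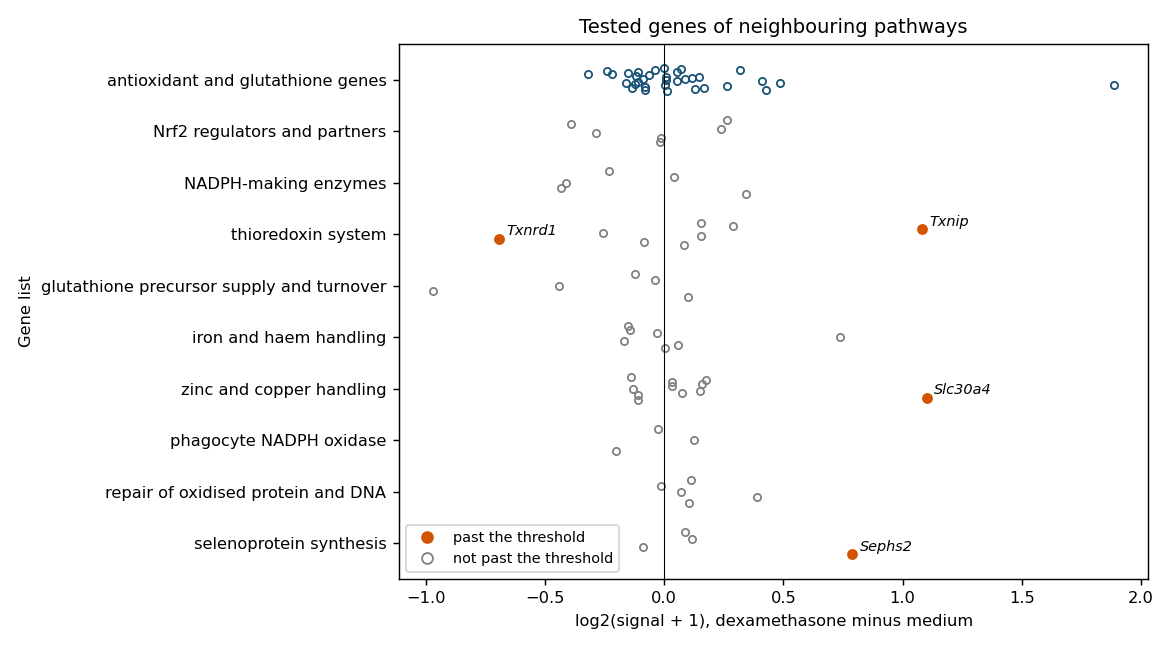
Log2 difference, dexamethasone minus medium, of the 34 tested antioxidant and glutathione genes (top) and of the tested genes of 9 neighbouring lists, 1 point a gene. Filled orange points passed the threshold: Txnip, Slc30a4 and Sephs2 to the right, Txnrd1 to the left.

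Several of these enzymes are also abundant in other cells of the thymus, so markers were read beside them. Of 9 double-positive markers 9 were above background, with summed signals of 9330 to 10291 with dexamethasone and 9716 to 9988 in medium. Of these, Cd8b1 and Ptcra fell. Of 12 macrophage and dendritic markers 5 were within background on every array, and the sums were 159 to 162 with dexamethasone and 174 to 175 in medium. Of 6 erythroid markers 3 were within background, with sums of 132 to 170.0 with dexamethasone and 124 to 130.1 in medium. Of 9 fibroblast and endothelial markers 5 were within background, with sums of 249 to 274 with dexamethasone and 208 to 246 in medium. Among the 4 tested 0 passed. Col1a1 came nearest, at 33.5 and 38.2 with dexamethasone, against 16.5 and 18.4 in medium (limma adjusted p = 0.0502), and the other tested ones overlapped. Of 8 thymic epithelial markers 7 were within background, with sums of 122 to 124 with dexamethasone and 222 to 230 in medium. The exception, Cldn4, had 87.4 and 97.8 with dexamethasone, against 203 and 210 in medium, and fell. Of 6 B cell markers 1 was within background, with sums of 171 to 185 with dexamethasone and 159 to 160 in medium. Their part in the values above was not tested.

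All directions hold relative to the deposited scaling. The 9 hybridization controls, which are added after RNA extraction, were 1.37-fold higher on the dexamethasone arrays. Scaled to them, the median of all genes was -0.45 and that of the members -0.45. In that scaling 15 of the 34 members fell, beside 44.8% of all genes, and 1 passed in the other direction. That was Gpx3, whose medium signals lay within background and which was tested only through its dexamethasone arrays. RNA integrity, read as the 3′ over 5′ signal of actin, was 1.40 and 1.24 with dexamethasone, against 1.15 and 1.06 in medium. The same ratio of Gapdh overlapped, at 0.904 and 0.823 with dexamethasone, against 0.838 and 0.845 in medium. The part of RNA integrity in the results was not tested.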

How the data were processed

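Per the submitters' processing notes, the authors used MAS5, and they deposited 1 linear intensity for each probe set and array; version and settings are not given in the sources used here. All arrays shared a trimmed mean of 100.1, with 2% cut from each end. Detection calls were not used. Of 12488 probe sets 66 were controls, and 10833 named 1 gene in the platform annotation.

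Signals were used as log2(signal + 1). Differences of dim genes are understated on this scale. The brightest probe set stood for each of 8251 genes. Genes with a mean at or under the 40th percentile of all non-control probe sets were left out, which left 5582. Dexamethasone was set against medium with lmFit and eBayes with a trend in limma (version 3.58.1, R version 4.3.3). Tests were two-sided, p-values were adjusted over all genes by Benjamini-Hochberg, and the threshold was 0.05. "Rose" and "fell" are used only of genes that passed. The fit was tested on simulated data with independent noise. That test does not show how the fit behaves on technical replicate extracts. Values are mean ± SD or difference ± SE, with 2 arrays a group. The number of arrays limits the precision.

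The members and lists were chosen with earlier results of these data known. All tested members are named, the dim ones by class; of each list up to 3 genes that passed are named, or the 2 largest differences where none passed. Mtf1, Txn1, Nfe2l2, Pgd and the markers Cd8b1, Ptcra, Cldn4 and Col1a1 were named beside this rule, after their values were seen. The array names no genome build; GRCm38.p6 served for names, chromosomes and promoter sequences. The alternatives were 3 scalings, 2 pseudocounts, 2 filters, no variance trend, a replicate block, averaged or separate probe sets, and leaving out each array.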

Additional observations from a re-analysis of the deposited data

How the results depend on the processing

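Over 15 alternatives, 0 members passed in 14; the exception was scaling to the hybridization controls, with 16 members (1 higher, 15 lower) and 2541 of all genes past the threshold, against 218 with the deposited scaling. The median log2 difference of the members was then -0.45, and that of Sod1 -0.44, against 0.01 for each with the deposited scaling. This scaling shifts every gene alike. The count over all genes was 116 with no filter, 19 without the variance trend, and 31 to 70 when 1 array was left out, which leaves a group with a lone array that is assumed to vary like the others. The lowest adjusted p of a member in those fits was 0.0869. With a replicate block, 353 of all genes and 0 members passed, and Gpx3 had the lowest adjusted p of a member (limma adjusted p = 0.0562). Same-numbered arrays deviated together with a correlation of only 0.07 across genes, so the numbers are not taken to pair the arrays. The sign of the difference turned in 16 of the 34 members under the scaling to the hybridization controls, and in 0 to 7 members under each of the other 14 alternatives. Sod1 was the only member whose sign turned in a fit where it passed. Signals near the background of 14 limit Gpx3, Gpx5, Gsta2 and Gsta4.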
